A study of Homo sapiens with 18 samples.

Results

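RNR1 and RNR2 are the genes of the mitochondrial genome for the 12S and 16S ribosomal RNAs. They were examined here as 2 of the 43735 rows of a raw count table, and both were among the 14281 genes that passed the filter on low counts. The genes were selected on measured values, namely their share of all counts, which looked higher in cells given ferrostatin-1 (Fer-1) before RSL3. Their values in the comparisons with Fer-1 are therefore a description and carry no test, while RSL3 against untreated cells and the comparison of the lines were not used to choose them.

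The data were 18 bulk RNA-seq libraries of the human multiple myeloma cell lines MM1S, which responds to glucocorticoids, and MM1R, its glucocorticoid-resistant counterpart, with 3 libraries in each of 6 groups. In each line cells were left untreated, were given 5 µM RSL3 for 3 h, or were given 2 µM Fer-1 for 2 h and then 5 µM RSL3 for 3 h. RSL3 inhibits GPX4, the enzyme that detoxifies lipid peroxides, and induces ferroptosis, whereas Fer-1 traps lipid radicals and blocks it. The labels give a cell passage for each library (4, 6 and 7 in MM1R, 16, 22 and 23 in MM1S), and each passage has 1 library of every treatment. There is no group with Fer-1 alone, the labels do not say whether untreated cells received vehicle, and each line is a single established line grown in culture. In such bulk samples a change in the mixture of cells and a change in RNA per cell cannot be told apart.

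Mitochondrial ribosomes translate the few proteins that the mitochondrial genome encodes, all of them parts of the respiratory chain or of ATP synthase. The 12S rRNA is the RNA of the small subunit and the 16S rRNA that of the large subunit. Both are cut from a long precursor transcribed from the heavy strand, in which tRNAs lie between the genes and mark the cuts, and both carry only short A tails. How strongly a library samples them therefore depends on how RNA was selected, and the method of selection was not given in the sources used here.

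In the GENCODE annotation lifted to GRCh37, RNR1 lay at chrM:648-1601 and RNR2 at chrM:1671-3229, both on the plus strand, with lengths of 954 and 1559 bases. In the count table the rows TRNF, RNR1, TRNV, RNR2 and TRNL1 follow each other in the order of the mitochondrial genome. Only the tRNA for valine separates both rRNA genes. The stretch at chrM:1577-1695 (GRCh37, plus strand) is shown because it holds the boundary that must be cut to release both rRNAs, with the tRNA in capitals between the end of RNR1 and the start of RNR2.
RNR1-TRNV-RNR2: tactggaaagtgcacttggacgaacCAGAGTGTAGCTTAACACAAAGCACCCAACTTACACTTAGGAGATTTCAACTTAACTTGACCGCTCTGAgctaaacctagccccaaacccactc
The row of this tRNA held 0 or 1 count in every library, between neighbours that held at least 4523 counts. RNR1 had a GC content of 45.5% and RNR2 of 42.8%, and the longest run of A was 6 bases in RNR1 and 7 bases in RNR2.

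Copies of mitochondrial DNA in nuclear chromosomes can share reads with these rows. Of the 905 windows of 50 bases in RNR1, the length of the reads, 395 (43.6%) also occurred without a mismatch in the nuclear genome, against 237 of 1510 (15.7%) in RNR2. The nuclear match with the most such windows of RNR1 lay at chr11:10530805-10531756 (95.6% identity, 217 windows), and that of RNR2 at chr3:96336032-96337076 (95.2% identity, 153 windows). The windows stand for single reads, whereas the libraries held pairs of reads, and the share of pairs with a nuclear match was not computed. How the authors treated reads with several matches was not given in the sources used here. By the count of single windows, the level of RNR1 is the less certain of both rows.

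RNR2 was one of the most abundant rows of the table. It ranked between 2 and 8 among all rows by counts in every library, while RNR1 ranked between 83 and 866. Of the 13 mitochondrial mRNAs, 0 were found in the table under the symbols sought, so no rank against them is given. Per kb of gene, RNR2 had a median level of 4318 CPM (counts relative to the library total, scaled by TMM) and RNR1 of 471. The ratio of RNR2 to RNR1 per kb was 7.16 to 10.9 over the 18 libraries, although a mitochondrial ribosome holds both RNAs in equal number. RNR1 varied 4.10-fold and RNR2 3.35-fold between the lowest and the highest library.

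Before the comparisons, the libraries themselves require a few words. Total counts were 17635438 to 19368343, so that RNR1 was read from 4523 to 17443 counts and RNR2 from 74333 to 240759 counts, and counting error was small beside the spread between passages. The plasma cell genes SDC1, TNFRSF17, IRF4, PRDM1, XBP1, CD38 and SLAMF7 had at least 708 counts in every library, CD27 had 0 to 7, and markers of other cell types were low (CD3E 63 to 211 counts, HBB 65 to 236, EPCAM 6 to 29 and the others at most 9). MM1R replicate 2 with Fer-1 and RSL3 was set against 10 genes with a mean more than 8 times higher in MM1S than in the other MM1R libraries. In these genes every MM1S library also lay above all those MM1R libraries, whose mean was set as 0%. That library stood at a median of 48.5% of the MM1S level. The other MM1R libraries stood between -0.741% and 2.8%, but they were used to pick the genes, so values near 0% were set in advance for them. The library MM1S RSL3 replicate 1 stood apart in the mitochondrial tRNA rows, which summed to 4074 CPM there and to 859 to 2041 CPM in the other libraries. Values without one or the other of these 2 libraries are given beside results that they moved. Fold changes without a library come from fits with no passage block unless a block is named.

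RNR1 and RNR2 together made up a larger share of the library with Fer-1 and RSL3 than with RSL3 alone or without treatment, in every passage of both lines. In MM1R the share with Fer-1 and RSL3 was 1.29% at passage 4, 1.05% at passage 6 and 1.03% at passage 7. With RSL3 alone the shares of the same passages were 0.881%, 0.560% and 0.613%, and in untreated cells they were 0.897%, 0.622% and 0.583%. The 3 MM1R libraries with Fer-1 lay above all 6 other libraries of the line, while RSL3 and untreated libraries overlapped. The genes were chosen on this contrast, and the share of all genes that separate in this way is not given here.

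In MM1S the share with Fer-1 and RSL3 was 1.39% at passage 16, 0.997% at passage 22 and 0.776% at passage 23. With RSL3 alone it was 1.02%, 0.671% and 0.536%, and in untreated cells 0.687%, 0.530% and 0.407%. Within each MM1S passage the order was untreated, RSL3, Fer-1 and RSL3, and every library with Fer-1 lay above every untreated library. The RSL3 libraries overlapped with both of the other groups. For the separation of Fer-1 from untreated libraries, the share over all genes is not given here.

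**Figure D1:**
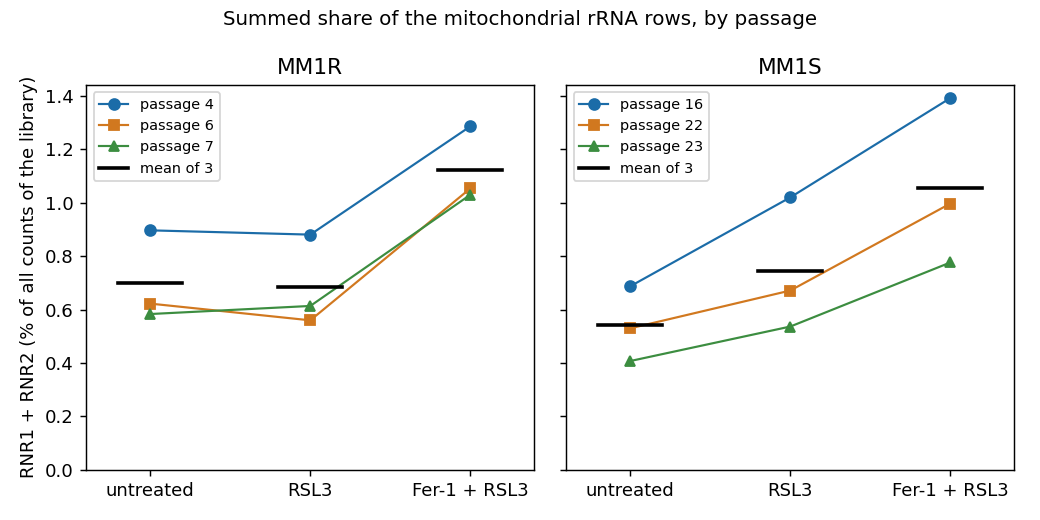
Summed counts of RNR1 and RNR2 as a percentage of all counts of a library (vertical axis, from 0) in untreated cells and with RSL3 or Fer-1 + RSL3, for MM1R (left) and MM1S (right). Points are libraries, lines join libraries of 1 passage and black bars are means of 3. The Fer-1 + RSL3 point is the highest of each of the 6 lines.

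Within a passage the share with Fer-1 and RSL3 was 1.36 to 1.88 times that with RSL3 alone and 1.43 to 2.03 times that of untreated cells. The mean difference from RSL3 was 0.376 percentage points (SD 0.0867, n = 6 passages). The mean difference from untreated cells was 0.468 percentage points (SD 0.122, n = 6 passages), and both differences use the same Fer-1 libraries. Since these contrasts chose the genes, no test is given, and across all genes the share called was 0% for Fer-1 and RSL3 against RSL3 in each line, 2.16% against untreated in MM1R and 1.37% against untreated in MM1S (edgeR, FDR under 0.05 and log2 fold change over 1 in size).

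The groups ranked by mean share as MM1R with Fer-1 and RSL3 (1.12% ± 0.142, SD, n = 3), MM1S with Fer-1 and RSL3 (1.06% ± 0.312), MM1S with RSL3 (0.743% ± 0.25), MM1R untreated (0.701% ± 0.171), MM1R with RSL3 (0.685% ± 0.172) and MM1S untreated (0.541% ± 0.140). The libraries of neighbours in this order overlapped at every step.

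Passage was the other axis along which the share moved. The lowest passage of the line had the highest share in all 6 groups, by 1.22 to 1.90 times over another passage of the group. The SD of the log2 share within groups was 0.366, and it was 0.0881 once the mean of each passage and of each treatment was taken out within a line. The libraries of the lowest passage also held the most genes with a count in each group, with 19642 to 20406 genes against 18706 to 19728 in the other passages. Whether passage number, the day of the experiment or the handling of RNA moved with the share cannot be told apart.

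The 12S and 16S rows were then read separately, per length. The level of RNR2 with Fer-1 and RSL3 was 6228 to 7236 CPM per kb in MM1R, against 3423 to 5156 with RSL3 alone and 3604 to 5206 in untreated cells. In MM1S it was 4626 to 8008 CPM per kb, against 3213 to 6989 with RSL3 and 2393 to 3967 in untreated cells. The MM1R groups with and without Fer-1 did not overlap in RNR2, and in MM1S every library with Fer-1 lay above every untreated library and overlapped with the RSL3 group through passage 16 alone. RNR2 was chosen on these contrasts, and the share of all genes with such separations is not given here.

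RNR1 with Fer-1 and RSL3 was 626 to 886 CPM per kb in MM1R, against 420 to 653 with RSL3 and 420 to 541 in untreated cells. In MM1S it was 424 to 948 CPM per kb with Fer-1 and RSL3, 323 to 976 with RSL3 and 238 to 454 in untreated cells. The RNR1 levels with Fer-1 and with RSL3 overlapped in both lines. On this scale the passage 16 library with RSL3 (976) lay above its partner with Fer-1 (948), so that RNR1 was higher with Fer-1 in 5 of 6 passages, whereas as a share of counts it was higher in 6 of 6.

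**Figure D2:**
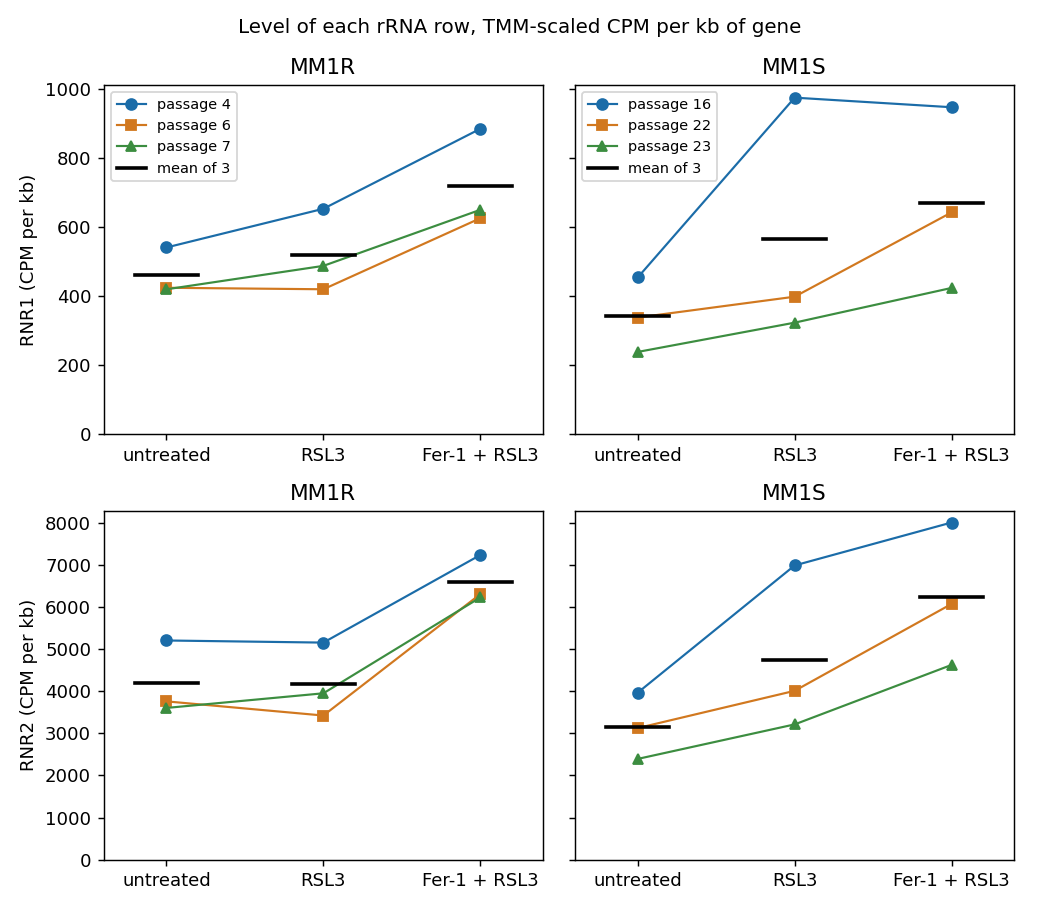
Level of RNR1 (top) and RNR2 (bottom) in TMM-scaled CPM per kb of gene, from 0, by treatment in MM1R (left) and MM1S (right), with 1 line per passage and the mean of 3 as a black bar. RNR2 reached 8008 and RNR1 976 CPM per kb, and the RNR1 level of passage 16 was about as high with RSL3 as with Fer-1 + RSL3.

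The fitted log2 fold changes for Fer-1 and RSL3 against RSL3 in MM1R were 0.66 for RNR2 (SE 0.27) and 0.47 for RNR1 (SE 0.36). In MM1S they were 0.40 for RNR2 (SE 0.27) and 0.25 for RNR1 (SE 0.36). These MM1S values depended on the passage 16 libraries. Without MM1S RSL3 replicate 1 they were 0.79 for RNR2 and 0.89 for RNR1. Without MM1S Fer-1 + RSL3 replicate 1 they were 0.18 for RNR2 and -0.083 for RNR1. Both fits had no passage block and kept the other passage 16 library, so they compared unlike sets of passages. Within passages 22 and 23, RNR1 was higher with Fer-1 and RSL3 than with RSL3 (613 against 380 CPM and 404 against 308 CPM). Against untreated cells the values were 0.65 for RNR2 and 0.64 for RNR1 in MM1R, and 0.98 and 0.97 in MM1S.

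MM1R replicate 2 with Fer-1 and RSL3 was then left out, with passage as a block. The values against RSL3 in MM1R were 0.61 for RNR2 and 0.47 for RNR1. They were about as large without that library. Whether that library held MM1S material was not tested. Without passage 6 of MM1R, to which it belongs, the mean difference in share from RSL3 was 0.352 percentage points over the other 5 passages.

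With cell passage as a block (next paragraph), both genes passed an FDR of 0.05 for RSL3 alone in MM1S. Without a block, RSL3 alone did not pass it for either gene in either line. The edgeR quasi-likelihood test gave log2 fold changes against untreated cells in MM1R of 0.17 for RNR1 (SE 0.36, FDR 0.864) and -0.0045 for RNR2 (SE 0.27, FDR 0.999). In MM1S the log2 fold changes were 0.72 for RNR1 (SE 0.36, FDR 0.288) and 0.58 for RNR2 (SE 0.27, FDR 0.245). Of all genes tested, 1.2% were called in MM1R and 1.61% in MM1S, and 3.67% passed an FDR of 0.05 in MM1S.

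With cell passage as a block, which uses that libraries of a passage move together, the FDR of the same edgeR test in MM1S was 0.0127 for RNR1 (log2 fold change 0.60) and 0.00627 for RNR2 (0.54), in a fit that placed 13.3% of all genes under an FDR of 0.05. Without MM1S RSL3 replicate 1 the blocked values fell to 0.37 for RNR1 (FDR 0.0265) and 0.40 for RNR2 (FDR 0.0140), and the unblocked values to 0.077 and 0.20. Neither gene reached a log2 fold change of 1. In MM1R the blocked FDR was 0.453 for RNR1 and 0.984 for RNR2.

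As a share of counts, RSL3 libraries lay above the untreated library of their passage in 3 of 3 passages of MM1S, by 1.27 to 1.48 times, and in 1 of 3 of MM1R, at 0.899 to 1.05 times. With TMM-scaled totals they lay above it in 2 of 3 MM1R passages, at 0.916 to 1.10 times. Over both lines the mean difference was 0.0926 percentage points (SD 0.142, n = 6 passages, higher in 4 of 6, exact two-sided sign-flip permutation test, p = 0.188, where the smallest p possible is 0.0313). The difference between the lines in the RSL3 effect, tested in edgeR, was -0.55 for RNR1 and -0.59 for RNR2 (MM1R minus MM1S, FDR 1.00 for both and 0.906 with the block), with 0% of genes called. Without MM1S RSL3 replicate 1 that difference was 0.10 for RNR1 and -0.20 for RNR2.

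No difference beyond the spread was found in these rows between untreated cells of both lines. All MM1R passages were lower than those of MM1S, so line and passage number cannot be told apart in any comparison of the lines. The summed share was 0.583% to 0.897% in untreated MM1R and 0.407% to 0.687% in untreated MM1S, and these ranges overlapped. The mean difference of 0.159 percentage points had p = 0.4 in an exact two-sided permutation test of 3 against 3 libraries, which cannot go below 0.1. The edgeR log2 differences, MM1R against MM1S, were 0.43 for RNR1 (FDR 0.504) and 0.41 for RNR2 (FDR 0.384), where 4.64% of genes were called.

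The ratio of RNR2 to RNR1 counts compares both rows within a library and so does not depend on its total. It was 12.9 to 13.3 in the 3 MM1R libraries with RSL3, below the 14.03 to 15.72 of untreated MM1R. It was 13.4 to 16.5 in MM1R with Fer-1 and RSL3. In MM1S it was 14.3 to 16.4 in untreated cells, 11.7 to 16.5 with RSL3 and 13.8 to 17.8 with Fer-1 and RSL3, so the groups overlapped. The log2 ratio was lower with RSL3 than without treatment in 5 of 6 passages, with a mean difference of -0.11 (SD 0.16, exact two-sided sign-flip permutation test, p = 0.188, smallest possible 0.0313). Against RSL3 it was higher with Fer-1 in 5 of 6 passages, by a mean of 0.15.

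The mitochondrial tRNAs are cut from the long transcripts of both strands. Most lie on the strand of RNR1 and RNR2, while TRNY, TRNS1, TRNE and TRNP, among the rows tested, lie on the other one. Of 22 rows, 21 held counts and 15 passed the filter. None of the 15 was called with RSL3 in either line, while their median log2 fold change was -0.29 in MM1R, with 13 of 15 lower, and 0.69 in MM1S, with 15 of 15 higher, against 0.000226 and 0.0022 over all genes tested. Without MM1S RSL3 replicate 1, the MM1S median was 0.12. With each library left out in turn, the MM1R median was -0.42 to -0.055, the latter without MM1R RSL3 replicate 2. The rows with the smallest p in MM1S were TRNP for proline (log2 fold change 0.78, FDR 0.0831) and TRNH for histidine (1.21, FDR 0.155, edgeR).

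With Fer-1 and RSL3 against RSL3, the median of the tRNA rows was 0.42 in MM1R, with 11 of 15 higher, and -0.27 in MM1S, with 13 of 15 lower. The MM1S value turned to 0.31 without MM1S RSL3 replicate 1. With each library left out in turn, the MM1R value was 0.14 to 0.54, the lowest without MM1R RSL3 replicate 2. Against untreated cells the median was 0.37 in MM1S and 0.0056 in MM1R, where it was -0.0045 in DESeq2 and 0.26 without MM1R replicate 2 with Fer-1 and RSL3. The one tRNA row called in any of the 8 comparisons was TRNK for lysine, which was higher in untreated MM1R than in untreated MM1S (log2 fold change 1.66, FDR 0.0214, edgeR).

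**Figure D3:**
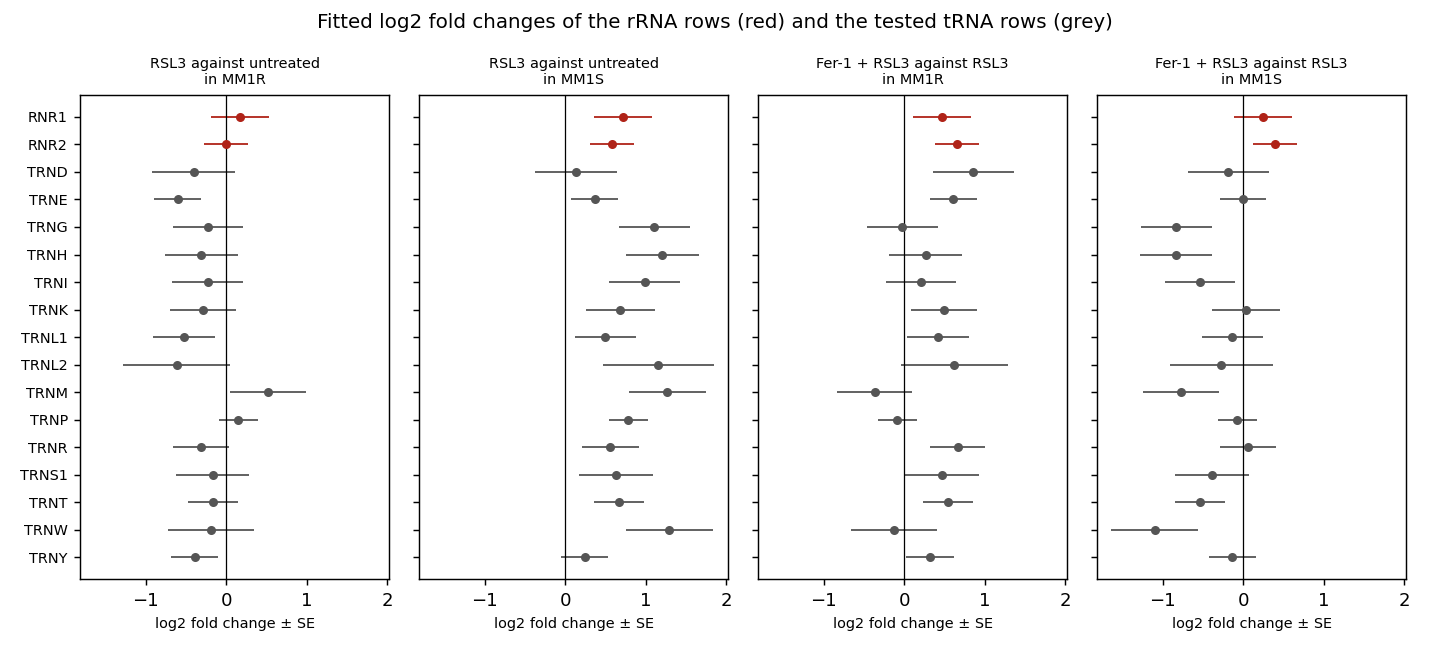
Fitted log2 fold change (horizontal axis, bars are SE) of RNR1 and RNR2 (red) and of the 15 tested mitochondrial tRNA rows (grey) in 4 comparisons, from a model of all 18 libraries. For RSL3 in MM1S all 15 tRNA rows lie right of 0, and for Fer-1 + RSL3 against RSL3 in MM1S 13 lie left of 0 while both rRNA rows lie right of it.

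With Fer-1 the rRNA rows were higher relative to the tRNA rows, which the ratio of their summed counts gives without reference to the library total. Untreated libraries had 4.17 to 4.80 rRNA counts per tRNA count in all 6 passages, a narrow range across lines. With RSL3 the ratio was 4.57 to 6.22 in MM1R and 2.90 to 5.58 in MM1S, where the 2.90 belongs to MM1S RSL3 replicate 1. With Fer-1 and RSL3 it was 5.94 to 8.68 in MM1R and 6.62 to 7.70 in MM1S, so that every library with Fer-1 lay above every untreated library. Within passages the ratio with Fer-1 was 1.24 to 1.99 times that of untreated cells and 1.084 to 2.612 times that with RSL3. The highest of these belong to the libraries that stood apart. Without MM1R replicate 2 with Fer-1 and RSL3, the highest ratio with Fer-1 in MM1R was 7.08 and the highest fold over untreated cells 1.75, and without MM1S RSL3 replicate 1 the highest fold over RSL3 was 1.55. These too are contrasts that chose the rRNA genes, and no test is given.

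**Figure D4:**
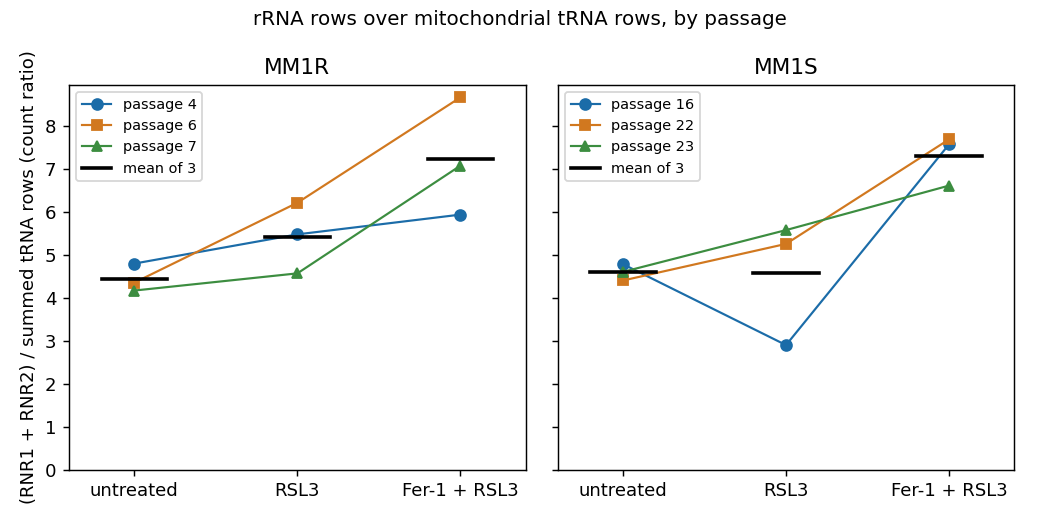
Counts of RNR1 and RNR2 divided by the summed counts of the mitochondrial tRNA rows (vertical axis, from 0) by treatment in MM1R (left) and MM1S (right), with 1 line per passage and the mean of 3 as a black bar. Untreated libraries lie between 4.17 and 4.80 and all libraries with Fer-1 + RSL3 above 5.9, and the lowest point is passage 16 of MM1S with RSL3.

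Rows of nuclear copies of the 16S gene were higher with Fer-1, as RNR2 was. The 10 rows of this family in the table summed to 45 to 130 counts per library and were higher with Fer-1 and RSL3 than with RSL3 in 6 of 6 passages, by 1.38 to 1.80 times, and than in untreated cells by 1.35 to 2.06 times. In these unscaled counts they were higher with RSL3 than in untreated cells in 3 of 6 passages. At MM1S passage 23 they were 53 with RSL3 and 54 untreated, at total counts of 18582237 and 19368343. Scaled by TMM, the 2 tested rows were higher with RSL3 in MM1S (log2 fold changes 0.19 and 0.30) and in MM1R (0.067 and 0.10). Neither was called. MTRNR2L2 held 30 to 109 counts and MTRNR2L8 12 to 37 counts, and these were the members tested. Against untreated cells in MM1R, MTRNR2L8 passed an FDR of 0.05 (log2 fold change 0.97, FDR 0.0376, edgeR), as did 9.22% of all genes, in a comparison that chose RNR2. Its correlation with the summed rRNA rows was 0.473 over 18 libraries and -0.0827 once group means were taken out, against 0.872 and 0.892 for MTRNR2L2. Copies can share reads with RNR2, and the part of such reads in either row was not tested.

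The nuclear genes that make, process and assemble these RNAs were counted from lists of known factors. Of 14 genes for mitochondrial transcription and DNA maintenance, none was called with RSL3 in either line, and 13 of 14 were lower in MM1R (median -0.17) and 12 of 14 in MM1S (median -0.15). MTERF2, of the mitochondrial termination factor family, passed an FDR of 0.05 in MM1R (log2 fold change -0.71, FDR 0.0456, edgeR), as did 3.36% of all genes, and POLRMT, the mitochondrial RNA polymerase, had -0.54 (FDR 0.105). With Fer-1 and RSL3 against untreated MM1R, POLRMT passed an FDR of 0.05 at -0.66 (FDR 0.0290, edgeR), as did POLG, the mitochondrial DNA polymerase, at -0.35 (FDR 0.0488), where 9.22% of all genes did.

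None of the 15 tested RNA processing genes, 13 stability and decay genes and 13 assembly factors was called in any of the 8 comparisons. Against RSL3, FASTKD3, a mitochondrial RNA-binding protein, had log2 fold changes with Fer-1 of 0.38 in MM1R (FDR 0.740, edgeR) and 0.46 in MM1S (FDR 0.783). It was the highest of the stability and decay genes, of which 9 of 13 were lower in MM1R (median -0.024) and 8 of 13 in MM1S (median -0.071). GTPBP10, a GTPase of large subunit assembly, had 0.68 against untreated MM1R (FDR 0.00833, edgeR). It was the 1 of 13 assembly factors under an FDR of 0.05, in a comparison where 9.22% of all genes were. Of these 13 factors, 11 were lower there (median -0.155).

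Of 81 tested mitoribosomal protein genes, 1 was called with RSL3 in MM1S, where 1.61% of all genes were, and none in MM1R, where 1.2% were. The called gene was MRPL18, of the large subunit (log2 fold change 1.12, FDR 0.0399, edgeR). The median of the list was -0.093 in MM1R, with 63 of 81 lower, and -0.018 in MM1S, with 41 lower. With Fer-1 and RSL3 against RSL3 the medians were -0.094 and -0.021, and none of the 81 was called, so the protein genes of the mitoribosome did not share the sign of the rRNA rows in these medians. Against untreated MM1R, 4 of 81 passed an FDR of 0.05, where 9.22% of all genes did, and all 4 were lower, with MRPL34 at -0.68 (FDR 0.00671, edgeR) and MRPL32 at -0.66 (FDR 0.0113).

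Other RNAs that typically have no or short A tails were read for comparison. Of 37 rows of cytosolic ribosomal RNA, 32 were at 0 in every library, and RNA45SN4, a precursor of the cytosolic rRNAs, held 8 to 144 counts. It was higher with Fer-1 and RSL3 than with RSL3 in 5 of 6 passages and than in untreated cells in 6 of 6. RN7SK, a small nuclear RNA without a poly(A) tail, held 6 to 54 counts and was higher with Fer-1 than with RSL3 in 2 of 6 passages and than in untreated cells in 5 of 6, with a median of 1.72 times. Replication-dependent histone genes, whose transcripts typically lack a poly(A) tail, summed to 18.8 to 129 CPM. Forms with and without a tail were not told apart. The histone rows were higher with RSL3 than without treatment in 6 of 6 passages but higher with Fer-1 than with RSL3 in 2 of 6. With Fer-1 they were higher than in untreated cells in 6 of 6 passages, with a median of 1.66 times. The part of RNA selection in the share of the rRNA rows was not tested.

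Over all 18 libraries, the genes whose log2 CPM followed that of the summed rRNA rows most closely, apart from the rows themselves, were ZNF337 (Pearson r = 0.910), AJM1 (0.908), ZFYVE1 (0.895), PIK3C2B (0.893), METTL22 (0.891), RERE (0.889), ANKRD42 (0.884) and, among the nuclear copies, MTRNR2L2 (0.873). Once the mean of each group was taken out, the closest genes were TCIRG1 (r = 0.978), YPEL3 (0.969) and FAM117A (0.969), and 140 genes, the rows themselves included, had r over 0.9, against 4 before. These values describe 18 libraries that share passages, treatments and depth, and no test was made of them.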

How the data were processed

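RNA was sequenced by the authors as pairs of 50-base reads on a BGISEQ-500, checked with FastQC 0.11.5 and aligned to hg19 with STAR 2.7.3a, and raw counts of 43735 genes were deposited. A second deposited file holds normalized signal of 29553 genes, each count over a size factor of its library, and served only to recompute the RNR2 to RNR1 ratio. The counting tool, annotation, use of strand, RNA selection and version of the mitochondrial sequence were not given in the sources used here. RNR1 and RNR2 and all gene lists were chosen with earlier results of these data known.

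Genes were filtered with filterByExpr (minimum count 10, 14281 kept), scaled by TMM (factors 0.864 to 1.06) and tested with the quasi-likelihood test of edgeR 4.0.16 (R 4.3.3) in 1 model of 6 groups with Benjamini-Hochberg adjustment over all genes tested. Called genes had an FDR under 0.05 and changed by more than 1 on the log2 scale. Shares were compared within passages by exact permutation tests. P-values of the unblocked edgeR fit and of the permutation test between untreated lines measure the spread between libraries of different passages. Those of the sign-flip tests and the blocked fit measure how differences within a passage vary from passage to passage. The labels give the passage that pairs libraries, and after group means were taken out, libraries of a passage correlated at a median of 0.25 in MM1R (0.0338 to 0.516) and 0.416 in MM1S (0.216 to 0.681). Alternatives were DESeq2 1.42.0, RLE scaling, other filters, a passage block, only the groups compared, other totals and leaving out each library. Combinations of the block with a left-out library were added after seeing the data. Named genes were the members, list genes past the threshold or with the smallest p in a comparison, and the genes with the most similar pattern. GENCODE gene positions on GRCh37 and BLAST+ 2.17.0 gave sequences and nuclear matches. The 13 mitochondrial mRNAs were not analysed here.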

Additional observations from a re-analysis of the deposited data

Results flagged for a closer look

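Of the mitochondrial tRNA rows, of which 15 passed the filter, 3 differed in opposite directions in the lines in every passage. These 3 were picked by that pattern, and its share over all genes is not given here. TRNH was lower with RSL3 than without treatment in all MM1R passages, with a mean difference of -26.2 CPM, and higher in all MM1S passages, by 139 CPM on average, most of it from MM1S RSL3 replicate 1 (500 CPM against 116 in its untreated partner). TRNE for glutamate had mean differences of -40.6 CPM in MM1R and 28.2 CPM in MM1S for the same contrast. The edgeR test of the difference between the lines gave an FDR of 1.00 for TRNH and TRNE. TRNT for threonine, with 3.71 to 10.98 CPM, was higher with Fer-1 and RSL3 than with RSL3 in all MM1R passages (2.47 CPM on average) and lower in all MM1S passages (-2.23 CPM), a difference that was not tested.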

How the results depend on the processing

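Over both lines, the mean within-passage differences of the summed share kept their direction under the alternative totals and the leaving out of each passage. For RSL3 against untreated cells the share also stayed on its side of the threshold under those totals. The RNR2 to RNR1 ratio kept its direction without each passage, while totals and size factors cannot move it. With 5 passages the exact p cannot go below 0.0625, so leaving out a passage could not bring it under 0.05. Within MM1R alone, the mean difference in share for RSL3 was -0.0161 percentage points and turned to 0.00357 with TMM-scaled totals, which also moved the passages higher with RSL3 from 4 to 5 of 6. With DESeq2, 273 genes were called for RSL3 in MM1R, and 12 and 5 for Fer-1 and RSL3 against RSL3 in MM1R and MM1S, where edgeR called 0 (881 and 821 genes at an unadjusted p under 0.05). With no filter on low counts 431 and 517 genes were called for RSL3 in MM1R and MM1S, 27 for the difference between the lines, 134 and 151 for Fer-1 and RSL3 against RSL3, and 502 and 378 against untreated, and RSL3 in MM1S gave 0.69 for RNR1 (FDR 0.000561, edgeR) and 0.56 for RNR2 (FDR 0.0127). A minimum count of 50 gave 410 calls between the untreated lines and 0.011 for RNR2 with RSL3 in MM1R. A fit of only the groups compared gave 3 calls for RSL3 in MM1S. The cause of these changes was not tested.

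With the passage as a replicate block, calls were 410 and 387 for RSL3 in MM1R and MM1S, 12 and 5 for Fer-1 and RSL3 against RSL3, and 521 and 383 against untreated. RNR1 and RNR2 passed an FDR of 0.05 for RSL3 in MM1S (0.60 and 0.54, and 0.37 and 0.40 without MM1S RSL3 replicate 1), and the block changed no other call of these genes.

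The fits below left out 1 library at a time without a passage block, so some compared unlike sets of passages. Calls ranged from 52 (without MM1R untreated replicate 1) to 341 (without MM1S RSL3 replicate 1) for RSL3 in MM1R. In MM1S they ranged from 52 (without MM1S untreated replicate 1) to 469 (without MM1S RSL3 replicate 3). They ranged from 415 to 796 between the untreated lines, from 0 to 31 for Fer-1 and RSL3 against RSL3 in MM1R, and against untreated from 189 to 394 in MM1R and from 115 to 291 in MM1S. For RSL3 in MM1R the log2 fold change ranged from -0.024 to 0.30 for RNR1 and from -0.18 to 0.18 for RNR2, and the difference between the lines from -0.83 to 0.10 for RNR1 and from -0.80 to -0.20 for RNR2. For Fer-1 and RSL3 against RSL3 in MM1S it ranged from -0.083 (without MM1S Fer-1 + RSL3 replicate 1) to 0.89 (without MM1S RSL3 replicate 1) for RNR1, and from 0.18 to 0.79 for RNR2. The median of the tRNA rows ranged from -0.68 to 0.31 for that comparison and from -0.076 to 0.26 (without MM1R Fer-1 + RSL3 replicate 2) for Fer-1 and RSL3 against untreated MM1R, where it was also -0.0045 with DESeq2, -0.0072 with RLE scaling and -0.0088 with no filter.

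Depth does not limit RNR1 and RNR2. It limits the nuclear copies, RN7SK and RNA45SN4, which had at most 144 counts, and 3 passages in a line cannot give an exact p below the threshold.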
